A study of Mus musculus with 2 samples.

Results

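Retinoic acid, the active form of vitamin A, is made and destroyed inside embryonic tissues and acts on nearby cells. The report describes 9 genes of this pathway, chosen by symbol from the 32285 genes of the count table: Stra6, Crabp1, Crabp2, Aldh1a1, Aldh1a2, Aldh1a3, Cyp26b1, Rarb and Rarg. All 9 were detected. As background, STRA6 is the membrane receptor that takes up retinol from its carrier in blood, and the retinaldehyde dehydrogenases ALDH1A1, ALDH1A2 and ALDH1A3 carry out the last step of synthesis. CRABP1 and CRABP2 bind retinoic acid in the cytosol, CYP26B1 oxidises it, and RARB and RARG are nuclear receptors that bind DNA with an RXR partner and switch target genes. In the embryo the pathway is best known for patterning the trunk and limbs and for its effects on cartilage.

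The data were single-cell RNA profiles of mouse embryos at E14, with the heads and viscera removed. Cells were dissociated with enzymes and sorted for the fluorescent reporter tdT, which Cre switches on. Cre was under the control of Myf5, so the reporter marks cells that expressed Myf5 or descend from such cells, which include muscle progenitors and also other lineages. The group SRSF2f/f/Myf5-Cre/tdT carries 2 floxed alleles of Srsf2, a splicing factor gene, and the group SRSF2f/w/Myf5-Cre/tdT carries 1 floxed and 1 wild-type allele. Both groups carry Myf5-Cre and the tdT reporter, so no group without Cre was measured. Each group is 1 library, and the number and sex of the embryos behind it are not given in the sources used here. With 1 library per group there is no replicate check and no test between the genotypes. All intervals below are 95% intervals of counting error only.

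The libraries are named by their labels throughout, because Srsf2 itself went against them. Srsf2 stood at 219 counts per 1000000 UMIs (CPM; 95% interval 216.6-221.3) in the library labelled SRSF2f/f/Myf5-Cre/tdT, shortened here to labelled f/f, and at 153 CPM (150.6-155.0) in the library labelled SRSF2f/w/Myf5-Cre/tdT, shortened to labelled f/w. Cells with muscle markers made up 17.8% of the kept cells of labelled f/f and 1.10% of those of labelled f/w. The names the submitters gave to the 2 run summaries also go against the titles. If the labels were exchanged, every ratio of labelled f/f over labelled f/w below would change its sign. The ratios within 1 library and the levels by cell set would stay as they are. The kept cells number 12523 with a median of 10751 UMIs in labelled f/f and 10345 with a median of 9480 UMIs in labelled f/w, and 50 barcode sequences occur among the kept cells of both.

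Cells were placed in sets by UMIs of fixed markers that are not among the 9 genes. The largest set was mesenchyme, with 4216 cells in labelled f/f and 2894 in labelled f/w. It was set last, among cells that met the limit of no other class. Prrx1, one of the markers that chose it, had a UMI in 78.8% of mesenchymal cells and in 30.4% of all others, a difference that the choice itself sets. Mesenchymal cells were divided by further markers into cells with Twist2 (400 and 160 cells), tendon markers (390 and 226), Ngfr or Ebf2 (208 and 67), Osr1, Osr2 or Meox2 (132 and 139), Foxd1 (85 and 166), Hoxd13, Tbx3 or Isl1 (84 and 187) and Zic1 or Zic4 (67 and 64). Cells with Dpt, Clec3b or Pi16 were one more subset, of 252 and 32 cells. With under 50 cells in labelled f/w, it entered no comparison between sets or libraries, apart from its labelled f/f sum in the search for the genes most alike. A cell entered a mesenchymal subset only with at least 3 times the UMIs of any other of these lists. A further 2042 and 1363 cells met at least 1 list but not this rule, and 556 and 490 met none. The former had UMIs of more than 1 list and are called cells with several lists here. The other sets were chondrocytes, osteoblasts, muscle cells with and without myocyte markers, endothelial cells with and without lymphatic markers, pericytes, Schwann cells, epidermis, immune and erythroid cells, and neurons. A subset of neurons was chosen on a list of motor neuron genes. Isl2 had a UMI in 88.5% of its cells, Slc5a7 in 20.1%, Slc18a3 in 11.5%, Chat in 3.4% and Mnx1 in 1.7%. In all other cells the shares were 0.94%, 0.73%, 0.13%, 0.026% and 0.018%, differences that the choice itself sets. Since only Isl2 was found in most of its cells, the subset is called Isl2 neurons here. Levels are compared between sets and libraries for 1 gene at a time, since 3′ UMI counts give no scale per transcript length between genes.

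Rarb is a textbook target of its own ligand, and the sequence behind that is short enough to print. Of the 9 genes, 7 have promoter windows in the RefSeq table (GRCm38.p6, 250 bases before to 50 bases after each start), 12 windows in all. A retinoic acid response element pairs 2 hexamers of 6 bases. The hexamer AGGTCA was searched on both strands, as were its variants with another letter at base 1 (GGGTCA), at base 3 (AGTTCA) or at both (GGTTCA). A pair in the same direction with 5 bases between was counted as a direct repeat. The repeat occurred in 1 of the 12 windows, that of Rarb, and in 0.0974% of the 32851 promoters of the table. A single hexamer occurred in 4 windows of 4 genes and in 43.7% of all promoters, so it sets none of the genes apart. The stretch shown is 100 bases of the Rarb promoter at chr14:16575477-16575576 on the minus strand, with the 2 hexamers of the direct repeat in capitals at positions -53 to -37 from the start. The window holds 3 hexamers in all, and the one outside the repeat, gggtca, is left in lower case:
Rarb: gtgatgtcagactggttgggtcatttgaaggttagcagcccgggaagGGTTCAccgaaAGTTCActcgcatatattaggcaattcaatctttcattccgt
The match is a description of the letters, and binding was not measured.

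**Figure D1:**
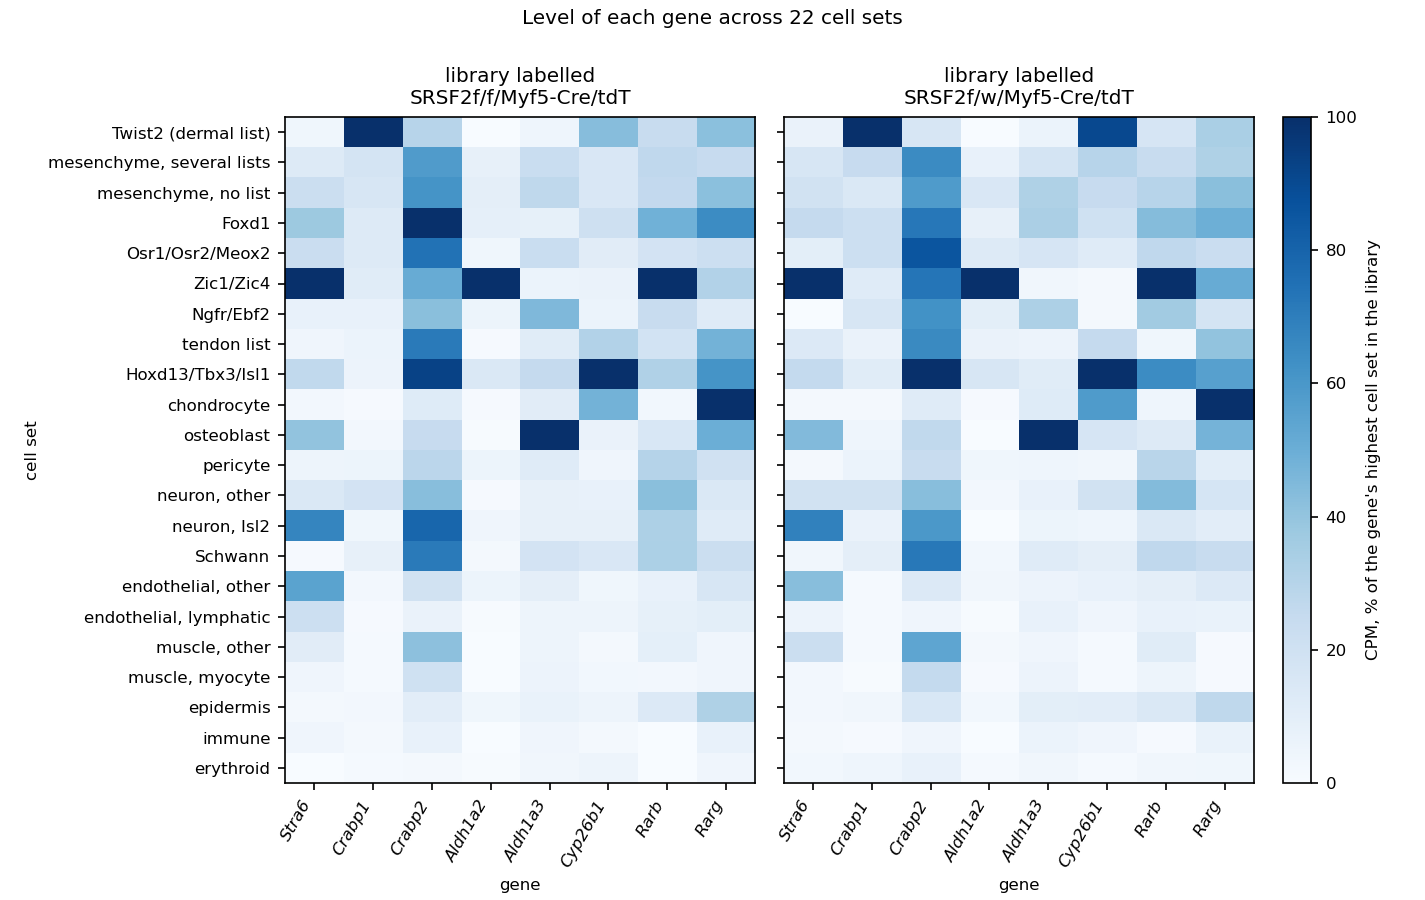
Heat maps of the level of 8 of the genes (columns; Aldh1a1 was too low to show) in 22 sets of cells that share no cell (rows), one map per library; colour is the gene's level as a percent of its highest set in that library. Crabp1 peaks in Twist2 cells, Aldh1a2 in Zic cells, Aldh1a3 in osteoblasts and Rarg in chondrocytes, in both libraries.

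Each gene had its highest level in a particular set, and most of these sets were mesenchymal. Of the 9 genes, 7 were highest in a mesenchymal subset in both libraries, while Aldh1a3 was highest in osteoblasts and Rarg in chondrocytes. The share of all genes that were highest in a mesenchymal subset was not counted, so the 7 have no background to stand against. For Aldh1a1, 1 of the 7, the top set held only 4 and 2 UMIs. The members of the pathway were not highest together: the import gene Stra6, the synthesis gene Aldh1a2 and the receptor gene Rarb shared Zic cells as their top set, whereas the degradation gene Cyp26b1 was highest in cells with Hoxd13, Tbx3 or Isl1 in both libraries. These top sets hold for cells with at least 3 times the UMIs of any other subset list. Drawn without regard to other lists, Zic cells were no longer highest for Stra6 and Rarb in either library or for Aldh1a2 in labelled f/w, and the cells with Hoxd13, Tbx3 or Isl1 were no longer highest for Cyp26b1 in either. Immune cells were taken as the background, since free RNA gives UMIs in cells that do not express a gene, and their values stand beside the results. Their median depth was 13230 and 14744 UMIs, deeper than that of mesenchyme (9054.5 and 8501.5).

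Stra6 (chr9:58063788-58153996, plus strand, GRCm38; the gene overlaps Gm16131 on its own strand and Ccdc33 on the other) was a low gene with 861 UMIs in labelled f/f and 653 in labelled f/w. It was highest in Zic cells, at 48.3 CPM (32.1-69.8; 28 UMIs) in labelled f/f and 40.2 CPM (25.5-60.3; 23 UMIs) in labelled f/w. Isl2 neurons came next, at 32.4 CPM (23.7-43.3) and 27.6 CPM (22.4-33.5), and 45.1% and 41.5% of these cells had a Stra6 UMI. That share rests partly on depth, since Isl2 neurons had a median of 26156 and 25252 UMIs, and it was 7.84% and 8.94% once each cell was thinned to 2000 UMIs. The other neurons held 7.04 and 7.67 CPM, with intervals below those of Isl2 neurons in both libraries. Blood endothelium, meaning endothelial cells without lymphatic markers, stood at 26.5 CPM (20.3-34.1) and 17.2 CPM (13.6-21.4), and osteoblasts at 19.5 and 17.9 CPM. When Zic cells were taken whatever other list they met, they held 14.8 and 8.0 CPM, under the Isl2 neurons. The intervals of neighbours in this order overlapped, so the order of the leading sets is not resolved at this depth. Immune cells held 1.93 and 0.731 CPM.

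Crabp1 (chr9:54764748-54773110, plus strand) had the most UMIs of the 9 genes, 34855 in labelled f/f and 23750 in labelled f/w. Twist2 is a transcription factor of dermal progenitors, and mesenchymal cells with Twist2 held Crabp1 at 2723 CPM (2671-2775) in labelled f/f and 1985 CPM (1922-2049) in labelled f/w. Nearly all of them had a Crabp1 UMI, 99.0% and 96.9%, and after thinning to 2000 UMIs the shares were still 94.5% and 90.0%. A cell of this set had a median of 25 and 21 Crabp1 UMIs and at most 95 and 116. The set made up a small part of the mesenchyme but held 30.4% of all Crabp1 UMIs of labelled f/f and 15.9% of those of labelled f/w. The level depends on how the set is drawn: when every mesenchymal cell with the Twist2 marker was taken, whatever other list it met, it was 1359 CPM in 1175 cells and 1174 CPM in 580 cells.

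After the Twist2 cells, Crabp1 had a broad middle range. Neurons other than Isl2 neurons held 497 CPM (479-516) and 378 CPM (366-390), and 45.4% and 44.4% of them had a UMI. Isl2 neurons were lower, at 97.3 CPM (81.7-115) and 124 CPM (113-136). Mesenchyme as a whole held 601 and 505 CPM and 72.7% and 58.1% of the Crabp1 UMIs of its library. Within mesenchyme the UMIs were concentrated: the median cell had 1 UMI, and the 10% of cells with the most held 56.6% and 62.3% of them. Cells with tendon markers were among the lower mesenchymal sets, at 161 and 125 CPM. Immune cells were at 43.9 CPM (35.4-54.0) and 22.5 CPM (19.6-25.7), and muscle cells were near them at 39.1 and 20.2 CPM. Chondrocytes were below the immune cells in labelled f/f (28.2 CPM, 26.2-30.3) and above them in labelled f/w (38.9 CPM, 36.4-41.5), and the intervals did not overlap. The immune value is thus not the lowest level of Crabp1. Among immune cells 17.2% and 16.3% had a UMI but only 1.60% and 3.34% after thinning. Single immune cells held 21 of the 91 UMIs in labelled f/f and 22 of the 215 in labelled f/w.

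**Figure D2:**
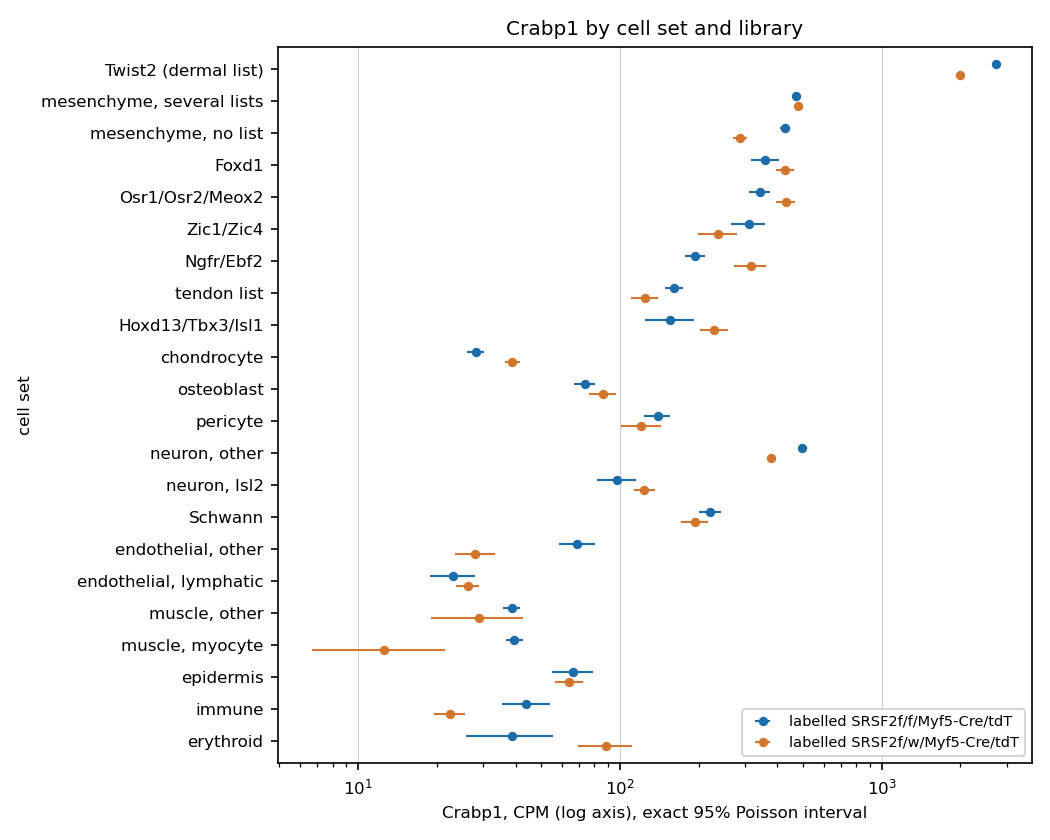
Crabp1 in CPM (log axis) in each set of cells, with 1 point per library and 95% counting intervals. Twist2 cells stand apart at 2723 and 1985 CPM in labelled f/f and labelled f/w, and immune cells, the background, are at 43.9 and 22.5 CPM.

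Crabp2 (chr3:87948666-87953376, plus strand) was spread more evenly, with 9558 and 7419 UMIs. It was highest in Foxd1 cells in labelled f/f (176 CPM, 147-209) and in Hoxd13, Tbx3 or Isl1 cells in labelled f/w (187 CPM, 163-213). The same sets held 136 CPM (118-156) and 163 CPM (131-200) in the other library, and the leading sets overlapped in their intervals. Twist2 cells, the peak of Crabp1, were at the low end of mesenchyme for Crabp2, at 52.1 CPM (45.2-59.8) and 30.5 CPM (23.2-39.5), against 100 and 118 CPM in mesenchyme as a whole. In muscle, Crabp2 was higher in the cells without myocyte markers, at 73.3 CPM (69.3-77.4) and 100.5 CPM (80.8-123.5), than in cells with them, at 35.1 CPM (32.4-38.0) and 47.4 CPM (35.1-62.6). Immune cells held 12.6 and 7.31 CPM.

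Mesenchymal cells with a UMI of a limb transcription factor also differed in the pair of binding proteins. Crabp2 stood at 144 CPM (118-175) and 197 CPM (163-235) in cells with Tbx5, a forelimb gene, and at 145 CPM (130-162) and 187 CPM (167-209) in cells with Tbx4 or Pitx1, hindlimb genes. Mesenchymal cells with neither had 96.3 CPM (93.2-99.4) and 110 CPM (106-115). Crabp1 had the opposite order, with 329 and 270 CPM in Tbx5 cells, 431 and 309 CPM in Tbx4 or Pitx1 cells and 618 and 527 CPM in the rest. These sets are small, with 73 and 77 Tbx5 cells and 230 and 177 Tbx4 or Pitx1 cells.

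Aldh1a1 (chr19:20492715-20643465, plus strand; C730002L08Rik and Gm6684 lie on the other strand) was near the limit of detection, with 61 and 51 UMIs in all kept cells, or 0.402 and 0.415 CPM. Its highest set was Zic cells, with only 4 and 2 UMIs. Schwann cells of labelled f/f held 10 UMIs in 1.04% of cells, and those of labelled f/w held 1. No comparison between sets is firm at this depth.

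Aldh1a2 (chr9:71215789-71296243, plus strand; Gm48124 on the other strand), the main retinaldehyde dehydrogenase of the early trunk, had 1182 and 843 UMIs and was highest in Zic cells. These held 243 CPM (205-287; 141 UMIs) in labelled f/f and 168 CPM (136-205; 96 UMIs) in labelled f/w. The next set, cells with Hoxd13, Tbx3 or Isl1, was at 34.8 CPM (20.9-54.3) and 26.7 CPM (18.1-37.8), with counting intervals below those of Zic cells. These intervals take no account of UMIs gathered in few cells. Zic cells held 11.9% and 11.4% of all Aldh1a2 UMIs, fewer than the 35.7% and 21.8% in the many mesenchymal cells with several lists. Not every Zic cell carried it: 35.8% and 31.2% had a UMI (16.4% and 14.1% after thinning), and the 10% of cells with the most held 66.0% and 76.0% of the UMIs, with up to 18 and 29 in a single cell. Drawn without regard to other lists, the Zic cells held 49.7 CPM in 707 cells and 26.4 CPM in 556 cells, so the value depends strongly on leaving out cells with several markers. In labelled f/w that is under the 29.2 CPM of the Hoxd13, Tbx3 or Isl1 cells drawn in the same way. Twist2 cells had 2 UMIs in 400 cells of labelled f/f and 0 UMIs in 160 cells of labelled f/w, where 3 UMIs would be 1.58 CPM, and immune cells held 0.483 and 0.522 CPM.

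Aldh1a3 (chr7:66390890-66427517, minus strand) was instead highest in osteoblasts, with 115 CPM (107-124) in labelled f/f and 105 CPM (94.0-116) in labelled f/w. A UMI was found in 61.0% and 53.0% of osteoblasts (17.7% and 14.0% after thinning). The set held 24.9% and 18.8% of the Aldh1a3 UMIs of its library. Cells with Ngfr or Ebf2 were next in labelled f/f at 52.0 CPM (43.8-61.4) and were at 34.0 CPM (21.3-51.5) in labelled f/w. In labelled f/w, Foxd1 cells ranked second at 34.9 CPM, but 33 of their 52 UMIs came from 1 cell. Zic cells, the peak of Aldh1a2, had 4 and 2 UMIs of Aldh1a3. Immune cells held 4.83 and 6.37 CPM.

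Cyp26b1 (chr6:84571414-84593908, minus strand), which removes retinoic acid and is known from the distal limb bud and from cartilage, had 2791 and 2686 UMIs. It was highest in cells with the limb and patterning genes Hoxd13, Tbx3 or Isl1, at 106 CPM (80.6-137) in labelled f/f and 80.8 CPM (65.3-98.9) in labelled f/w. In labelled f/w that interval overlapped the one of Twist2 cells, so the lead is not resolved there. Taken without regard to other lists, cells with Hoxd13, Tbx3 or Isl1 held 43.0 and 56.2 CPM, under chondrocytes in labelled f/f and under Twist2 cells in labelled f/w. Chondrocytes, at 50.7 CPM (48.0-53.5) and 47.2 CPM (44.4-50.1), held the largest share of the UMIs of any set, 47.4% and 40.3%, and 42.9% and 37.0% of them had a UMI (10.3% and 8.92% after thinning). Twist2 cells were at 45.9 CPM (39.4-53.2) and 73.2 CPM (61.5-86.4). Zic cells had 4 UMIs and 1 UMI, osteoblasts were at 7.02 and 13.4 CPM, and immune cells at 1.93 and 3.24 CPM.

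**Figure D3:**
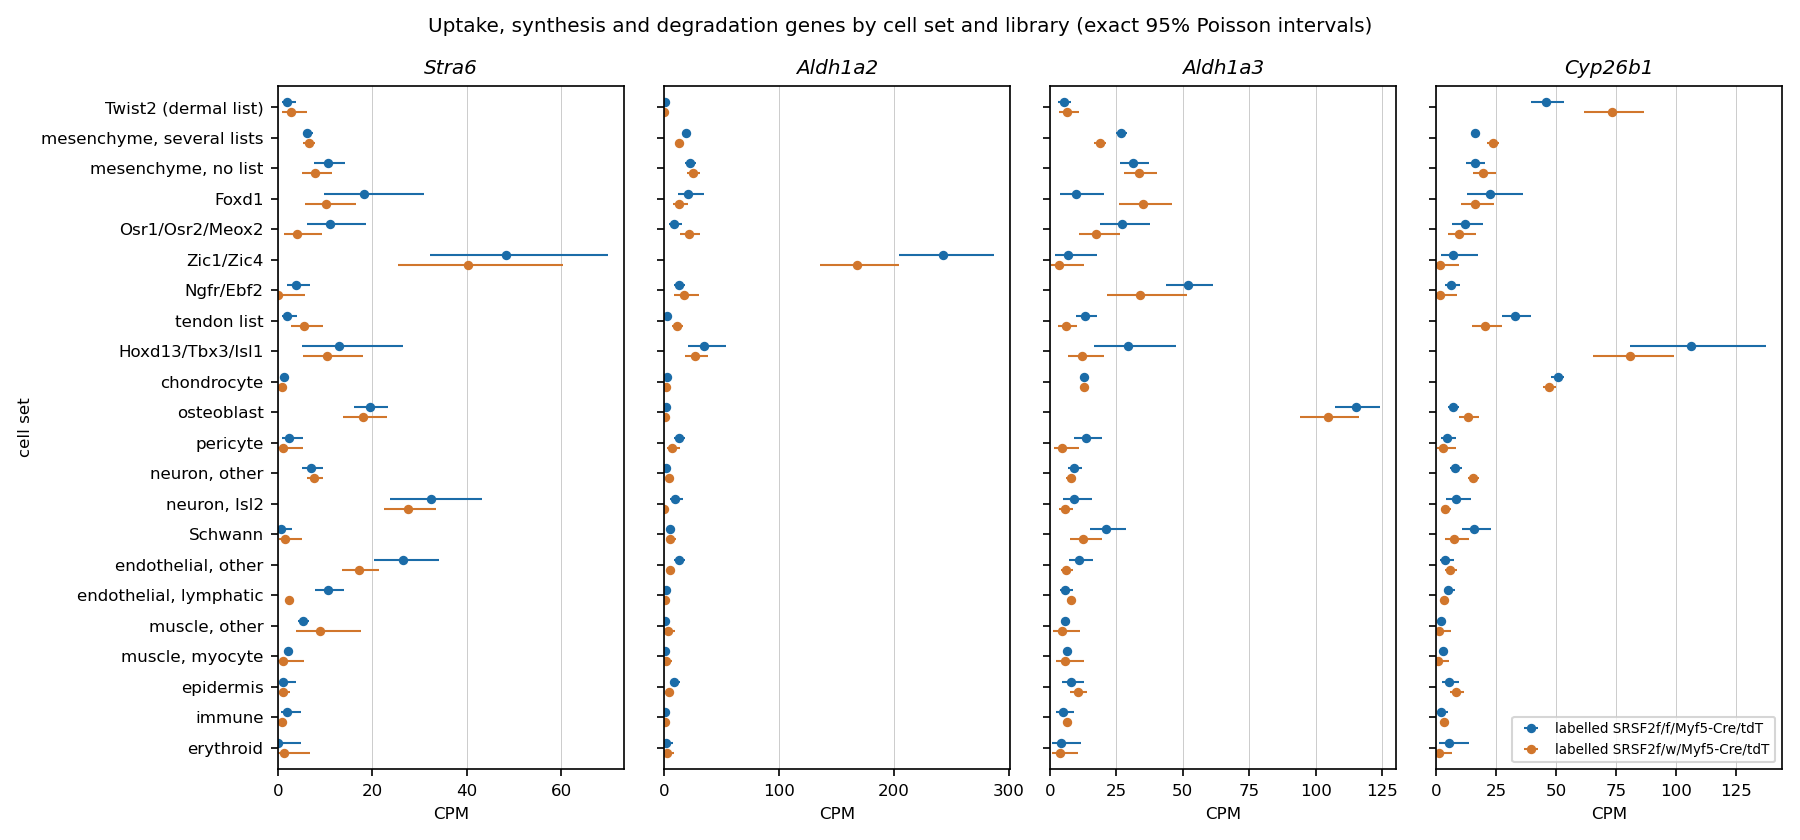
Stra6, Aldh1a2, Aldh1a3 and Cyp26b1 in CPM by set of cells, with 1 point per library and 95% counting intervals. Aldh1a2 peaks in Zic cells (243 and 168 CPM), Aldh1a3 in osteoblasts (115 and 105 CPM) and Cyp26b1 in cells with Hoxd13, Tbx3 or Isl1 (106 and 80.8 CPM) in labelled f/f and labelled f/w.

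The receptor genes differed from each other in place. Rarb (chr14:16430839-16819156, minus strand; Top2b and Gm48162 on the other strand) was low, with 804 and 800 UMIs, and was highest in Zic cells at 34.5 CPM (21.1-53.3) and 38.5 CPM (24.1-58.2). The next sets were Foxd1 cells in labelled f/f (16.7 CPM, 8.65-29.3) and cells with Hoxd13, Tbx3 or Isl1 in labelled f/w (24.9 CPM, 16.7-35.8). Both intervals overlapped that of Zic cells, so the lead is not resolved. Taken without regard to other lists, Zic cells held 13.2 and 10.3 CPM. Neurons other than Isl2 neurons held Rarb at 14.6 CPM (11.6-18.1) and 16.8 CPM (14.5-19.5), above the Zic cells of the looser draw. Chondrocytes were at 1.07 and 1.70 CPM, and immune cells had 0 and 4 UMIs.

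Rarg (chr15:102234938-102257517, minus strand) was highest in chondrocytes, at 94.99 CPM (91.3-98.8) in labelled f/f and 96.4 CPM (92.4-100.5) in labelled f/w. A UMI was present in 66.7% and 63.2% of chondrocytes (18.1% and 16.7% after thinning), and the set held 49.2% and 46.7% of the Rarg UMIs of its library. The next sets were Foxd1 cells (61.4 CPM, 44.6-82.4) in labelled f/f and cells with Hoxd13, Tbx3 or Isl1 (54.2 CPM, 41.6-69.3) in labelled f/w, both with intervals below that of chondrocytes. Muscle was low at 3.91 and 1.04 CPM, under the immune cells at 7.24 and 6.69 CPM. The level in chondrocytes was close between the libraries, with a log2 ratio of labelled f/f over labelled f/w of -0.02 (-0.10 to 0.06).

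Within mesenchyme, cells were also compared by whether they had a UMI of another gene of the pathway. Cells with Aldh1a2 (266 in labelled f/f and 190 in labelled f/w) held Stra6 at 38.1 CPM against 4.35 CPM in cells without it in labelled f/f, a log2 ratio of 3.13 (2.77-3.49). In labelled f/w the values were 28.8 against 5.52 CPM and a log2 ratio of 2.38 (1.89-2.85). Rarb was higher in the same cells, by log2 1.34 (0.92-1.75) and 1.28 (0.77-1.76), while Cyp26b1 was lower, by log2 -1.31 (-1.96 to -0.72) and -2.17 (-3.18 to -1.33), and Crabp1 was lower, by -1.28 and -1.12. Depth was similar, with median UMIs of 9723 against 9010.5 in labelled f/f and 8248.5 against 8511 in labelled f/w.

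The same comparison among mesenchymal cells with no Zic1 or Zic4 UMI kept part of this pattern. Stra6 was still higher in cells with Aldh1a2, by log2 1.56 (0.75-2.28) and 1.46 (0.49-2.32), and Cyp26b1 was still lower, by log2 -1.49 (-2.56 to -0.60) and -2.07 (-3.53 to -0.94). For Rarb the intervals then included 0, at 0.64 (-0.16 to 1.36) and 0.74 (-0.10 to 1.49), and the lower Crabp1 was -0.67 (-0.81 to -0.53) in labelled f/f and -0.04 (-0.19 to 0.12) in labelled f/w.

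Mesenchymal cells with Cyp26b1 (524 and 396 cells) were compared with the rest in the same way. They held Rarg at 51.0 against 24.9 CPM in labelled f/f and 50.6 against 31.4 CPM in labelled f/w, log2 ratios of 1.03 (0.84-1.23) and 0.69 (0.46-0.91). Crabp1 was higher in them by log2 0.83 and 1.08, and Aldh1a2 was lower by log2 -1.04 (-1.47 to -0.63) and -1.42 (-2.00 to -0.89), which is the co-detection given above seen from the other gene. Stra6 was lower in labelled f/f (-1.40, -2.26 to -0.65), while in labelled f/w its interval included 0 (-0.61, -1.36 to 0.06). For Rarb the interval included 0 in both libraries (-0.06, -0.52 to 0.38, and -0.49, -1.07 to 0.05). These are intervals over UMIs of 1 library each, and cells of a library are not replicates.

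**Figure D4:**
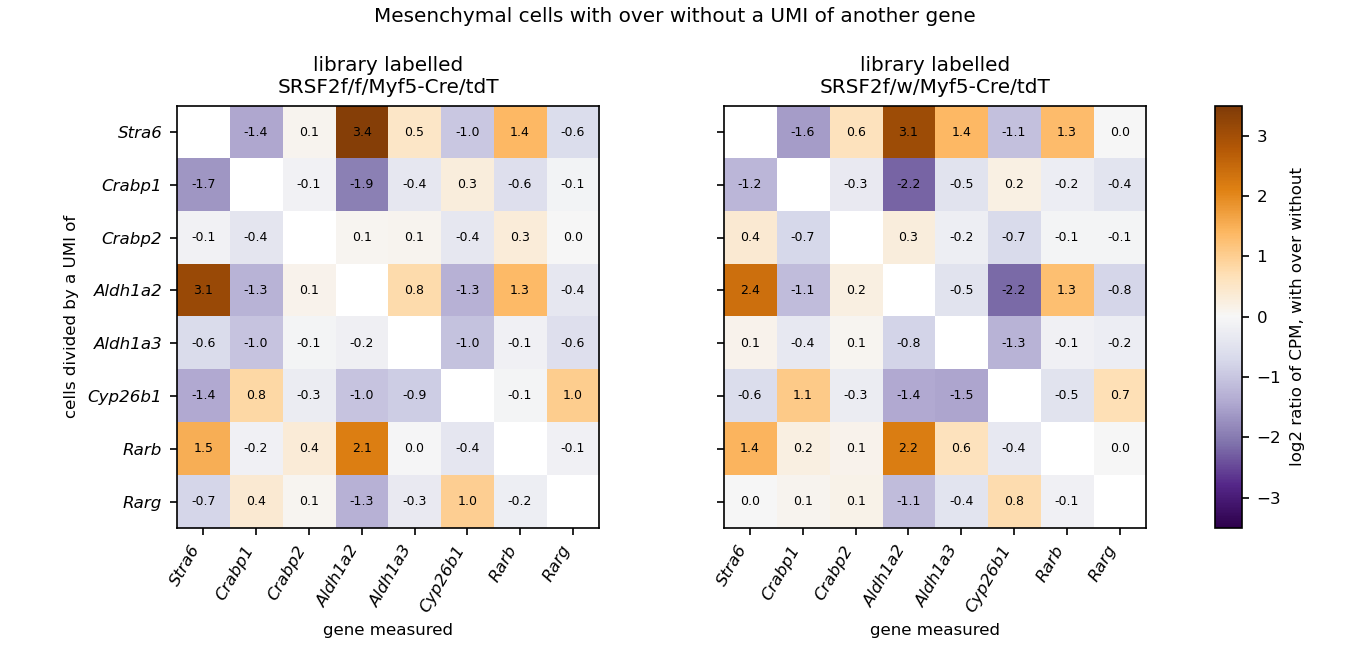
Heat maps, one per library, of the log2 ratio of a gene's level (columns) in mesenchymal cells with over cells without a UMI of another gene of the pathway (rows), orange for higher and purple for lower. In cells with Aldh1a2, Stra6 is higher (3.13 and 2.38) and Cyp26b1 lower (-1.31 and -2.17), in labelled f/f and labelled f/w.

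Cells with UMIs of proliferation genes differed from the rest for some members. Mesenchymal cells with at least 2 UMIs of Mki67, Top2a and Cenpf (1224 in labelled f/f and 549 in labelled f/w) held Crabp1 at 710 CPM (697-724) and 740 CPM (720-760), against 535 CPM (526-544) and 421 CPM (412-430) in the rest. The direction was opposite for Crabp2, at 78.2 CPM (73.9-82.7) and 89.4 CPM (82.7-96.6) against 113 CPM (109-117) and 129 CPM (124-134). Aldh1a2 was also lower in them, at 13.3 CPM (11.6-15.3) and 10.5 CPM (8.28-13.1) against 20.9 CPM (19.2-22.7) and 20.2 CPM (18.3-22.2). The cells with proliferation genes were deeper, with a median of 11850 and 12271 UMIs against 8341.5 and 7938, and the part of depth in these differences was not tested. In chondrocytes Rarg was 102 CPM with and 91.1 CPM without proliferation genes in labelled f/f, and 102 and 94.0 CPM in labelled f/w, and the intervals overlapped in both.

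The design also compares the genotypes. A gene was counted as past 2-fold if its ratio was at least 2 in either direction and it had at least 20 UMIs over both libraries. In mesenchyme, 0 of the 9 genes were past 2-fold between the libraries, against 4.52% of the 15527 genes with enough UMIs. Over all kept cells it was again 0 of 9, against 12.9% of 19142 genes. The median log2 ratio of the 9 genes in mesenchyme was -0.09, beside 0.05 over all genes, and over all kept cells 0.06 beside -0.05.

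Smaller differences in mesenchyme had intervals clear of 0 for some genes, with the directions resting on the library labels. The share of all genes with such an interval was not counted, so these differences have no background to stand against. Crabp1 was higher in labelled f/f, with a log2 ratio of 0.25 (0.22-0.28), and so was Aldh1a3, with 0.35 (0.20-0.51). Cyp26b1 was lower in labelled f/f, with -0.40 (-0.55 to -0.26), as were Rarg with -0.28 (-0.40 to -0.15) and Crabp2 with -0.24 (-0.31 to -0.17). The intervals included 0 for Aldh1a2 (0.04, -0.13 to 0.21), Stra6 (-0.09, -0.36 to 0.19), Rarb (-0.18, -0.40 to 0.05) and Aldh1a1 (0.33, -0.59 to 1.30). The makeup of mesenchyme also differed: Twist2 cells were 400 of 4216 mesenchymal cells in labelled f/f and 160 of 2894 in labelled f/w. Twist2 cells were higher than mesenchyme as a whole in both Crabp1 and Cyp26b1. For Cyp26b1 they held 45.9 and 73.2 CPM against 20.1 and 26.6 CPM. The part of makeup in these ratios was not tested. Within Twist2 cells Crabp1 was again higher in labelled f/f (log2 0.46, 0.40-0.51) and Cyp26b1 lower (-0.67, -1.0 to -0.34). For Crabp2 the direction turned there, with 0.77 (0.34-1.22).

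The other mesenchymal subsets did not share 1 direction for Crabp1. It was lower in labelled f/f in 4 of them: cells with Ngfr or Ebf2 (-0.71, -0.94 to -0.46), with Hoxd13, Tbx3 or Isl1 (-0.56, -0.93 to -0.20), with Osr1, Osr2 or Meox2 (-0.33, -0.52 to -0.14) and with Foxd1 (-0.25, -0.47 to -0.04). It was higher in tendon cells (0.37, 0.16-0.58), Zic cells (0.39, 0.06-0.72) and cells that met no list (0.57, 0.46-0.69). In the cells with several lists, the largest subset, the ratio was -0.03 (-0.07 to 0.02). Cyp26b1 also turned, being higher in labelled f/f in tendon cells (0.69, 0.18-1.22).

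**Figure D5:**
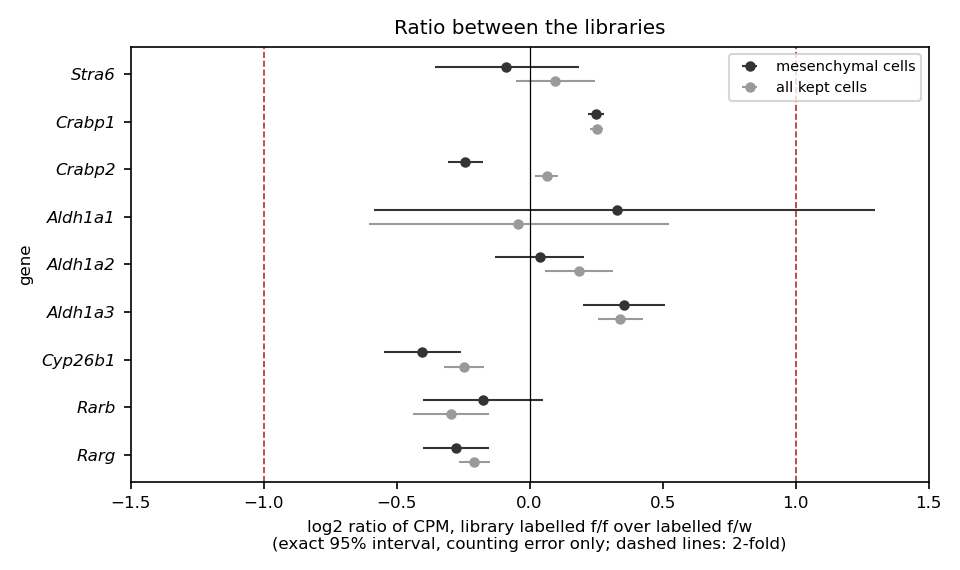
Log2 ratios of labelled f/f over labelled f/w for the 9 genes in mesenchyme and in all kept cells, with 95% counting intervals and dashed lines at 2-fold. None of the 9 ratios is past 2-fold in either; in mesenchyme they run from -0.40 (Cyp26b1) to 0.35 (Aldh1a3), and exchanging the labels would turn every sign.

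Over the 22 sets that share no cell, 148 of the 198 pairs of gene and set had at least 20 UMIs, and 20 of them (13.5%) were past 2-fold, against 6.9% of 225235 such pairs over all genes. Of the 20, 15 were higher in labelled f/f (background 4.23%) and 5 in labelled f/w (background 2.67%). The interval excluded 0 for 13 of the 20 and lay wholly past 2-fold for 1, and neither count was made over all genes. The pairs were mostly low counts: 5 of the 20 had 3 UMIs or fewer in one library, and 11 of the 20 were still past 2-fold once the cell with the most UMIs was left out of each library. Of the 9 lost, 4 had 1 UMI in labelled f/w and were left with 0 there, so that their ratio was taken against a floor of 3 counts and their loss follows from the floor. Aldh1a2 in tendon cells kept a log2 ratio of -1.18 and was lost because its 8 and 11 UMIs fell under the limit of 20. In myocytes, with 1120 cells in labelled f/f and only 62 in labelled f/w, 4 of the 6 genes with enough UMIs were past 2-fold, all 4 higher in labelled f/f, against 12.4% of all genes there. Of these, Rarg (68 against 1 UMI), Cyp26b1 (52 against 1) and Stra6 (35 against 1) had intervals that included 0. In labelled f/f they stood at 3.95, 3.02 and 2.03 CPM, beside 7.24, 1.93 and 1.93 CPM in immune cells. The median log2 ratio of the 6 genes in myocytes was 1.36, beside 0.07 over all genes, and the part of the small set in this was not tested. Genes with 0 UMIs in labelled f/w were set to 3 counts there, which in so small a set can hide or turn their direction. Stra6, left with 32 against 0 UMIs without its highest cells, came to -0.67 in this way. The 12.4%, the median over all genes and the shares over all pairs can hold such genes.

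The pair whose interval lay wholly past 2-fold was Stra6 in lymphatic endothelium, where 4.79% of all genes were past 2-fold. It stood at 10.5 CPM (7.74-14.0; 47 UMIs in 251 cells) in labelled f/f and 2.27 CPM (1.55-3.20; 32 UMIs in 709 cells) in labelled f/w, a log2 ratio of 2.22 (1.54-2.91). Few cells carried it: 13 of the 251 and 9 of the 709 had a Stra6 UMI (5.18% and 1.27%, or 1.99% and 0.283% after thinning). The highest cell held 9 and 11 of these UMIs, and without it in each library the log2 ratio was 2.52 (1.71-3.36). In blood endothelium, with 173 and 312 cells, the ratio had the same direction and was smaller, 0.63 (0.12-1.13). In chondrocytes, the largest set outside mesenchyme in labelled f/w, neither Rarg (-0.02) nor Cyp26b1 (0.10, -0.02 to 0.22) was past 2-fold, and 3.57% of all genes were.

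The other genes of the pathway, a list of 29, was counted in mesenchyme in the same way. Of these 23 had at least 20 UMIs, 1 was past 2-fold higher in labelled f/f and 0 the other way, against the same 4.52% of all genes, and their median log2 ratio was 0.15. The one past 2-fold was Rxrg, a retinoid X receptor gene, with 73 UMIs (1.73 CPM) in labelled f/f and 23 UMIs (0.842 CPM) in labelled f/w, a log2 ratio of 1.04 (0.35-1.78). It is named although its counts lie below the limit set for naming such genes. Among the genes of supply and transport, 9 of 12 had enough UMIs and 0 were past 2-fold. The highest of them was Fabp5, a fatty acid binding protein that also carries retinoic acid, at 487 and 322 CPM with a log2 ratio of 0.60 (0.56-0.63). Among receptors and cofactors, 8 of 8 had enough UMIs, with the corepressor Ncor1 at 199 and 186 CPM and Nrip1 at 97.0 and 93.0 CPM. Of 7 target genes, 5 had enough UMIs, and Meis2, a homeobox gene of the proximal limb, had 150 and 153 CPM. Of the remaining degradation genes, Cyp26a1 had 84 and 34 UMIs and Cyp26c1 had 0 in both libraries.

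The genes with the pattern most like each member were found by Pearson's r of log2(CPM + 1) over 45 sums of a set in a library, drawn from 23 sets, among 12635 genes. The sums share their library and depth, and no test goes with these values. Crabp1 was closest to Egfl6 (r 0.914), ahead of Tnfaip6 and Tmem132c (both 0.849). For Crabp2 the closest was Zfhx4 (0.898), followed by Wnk3 (0.892) and Igfbp5 (0.881). Rarg had Vasn (0.903) and the fibroblast growth factor receptor gene Fgfr2 (0.901) and then Errfi1 (0.882). Cyp26b1 had Wif1 (0.781), an inhibitor of WNT ligands, and then Rarg itself (0.770) and Mme (0.751). Aldh1a2 and Rarb shared the ephrin receptor gene Epha7 as their closest gene (0.763 and 0.835), with A2m (0.755) and Bdh2 (0.750) next for Aldh1a2 and Slit2 (0.831) and Zfp618 (0.824) for Rarb. Aldh1a3 was closest to Alpl (0.766), the alkaline phosphatase of mineralising bone, then Gsn (0.748) and Phex (0.744), the last being one of the markers used to choose osteoblasts. Stra6 had the weakest likeness, with Lrrc57 at 0.672, Dipk1b at 0.633 and Arl4d at 0.625.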

How the data were processed

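Single cells of 2 libraries were profiled with 10x Genomics 3′ chemistry. The deposited table holds counts of UMIs per gene and barcode as whole numbers, made by the authors with Cell Ranger against mm10 with introns not included, and aggregated after down-sampling of reads. The matrix header names Cell Ranger 5.0.0, while the submitters' processing notes name Cell Ranger 3.1.0, STAR and Seurat 3.1.1. The matrix holds 15268 barcodes with 156093779 UMIs (labelled f/f) and 12498 barcodes with 128116615 UMIs (labelled f/w).

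From these counts, cells whose log10 UMIs and log10 genes lay within 2 SD of their library's mean and with up to 10% mitochondrial UMIs were kept. Kept cells hold 151555303 and 122938843 UMIs. A cell entered a class with at least 3 UMIs from at least 2 genes of its list (20 UMIs for chondrocytes). It also needed 3 times more, relative to the limit, than for any other list, with the mesenchyme list left out. Mesenchyme was set last, from cells that met the limit of no other class, and the 3-fold rule was not applied to it. Mesenchymal subsets and the muscle, endothelial and neuron subsets needed 2 UMIs. A mesenchymal subset also needed at least 3 times the UMIs of any other mesenchymal subset list. No doublet caller was run. Cells that met a class limit but entered no class (688 and 635) were set aside, as were 1450 and 1414 that met none. Sets with under 50 cells in a library entered no comparison, except that the search for the genes most alike took every sum of at least 50 cells. Levels are UMIs per 1000000 of the summed UMIs of a set, with exact Poisson intervals, shares of cells have exact binomial intervals, and ratios have exact intervals from how the counts divide between libraries. A fold against 0 was computed against a floor of 3 counts, which can hide or turn a direction where the libraries differ much in total UMIs. All cover counting error only, and UMIs of 1 library allow no test between genotypes. Scripts were tested on simulated data.

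The members, the gene lists and the markers were chosen with earlier results of these data known. The limit of 20 UMIs, the comparison of lists relative to their limits and the rule for mesenchymal subsets were set after the cells had been counted under a limit of 3 UMIs, which is given as an alternative. All 9 members are named, other pathway genes if past 2-fold with 200 UMIs and up to 5 more by level (1 of which is not reported here), and the 3 most alike genes for members with at least 500 UMIs. Alternatives were 5 UMIs per class, the next list at 0 UMIs, no 2 SD limits, a mitochondrial limit of 5%, totals without the genes of ribosomal proteins, mitochondria and haemoglobin, median of ratios, equal weight of cells, thinning to 2000 UMIs, 1.5-fold and no minimum of UMIs. Gene coordinates are from GRCm38. Python 3.11.15, NumPy 2.4.6, SciPy 1.17.1, pandas 2.3.3 and matplotlib 3.10.9 were used.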

Additional observations from a re-analysis of the deposited data

Results flagged for a closer look

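For 3 genes, the ratio of labelled f/f over labelled f/w was past 2-fold in opposite directions, with intervals clear of 0, in different sets. The share of all genes that do so was not counted, so the 3 have no background to stand against. Once the highest cell of each library was left out, this held for Crabp1 only. With all cells, Rarb also passed 2-fold both ways. It was higher in labelled f/f in tendon cells (log2 2.22, 0.50-4.60, 23 against 3 UMIs) and in Isl2 neurons (1.03, -0.01 to 2.05). It was lower in cells with Hoxd13, Tbx3 or Isl1 (-1.18, -2.74 to 0.11, 6 against 29 UMIs). The interval of Rarb included 0 in Isl2 neurons and in cells with Hoxd13, Tbx3 or Isl1. The differences between sets were not tested, and every sign would turn if the labels were exchanged.

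Crabp1 was higher in labelled f/f in myocytes (log2 ratio 1.66; 681 against 13 UMIs) and in blood endothelium (1.29; 158 against 129 UMIs), and lower in erythroid cells (-1.20; 29 against 73 UMIs). Myocytes held 39.6 and 12.6 CPM, below the immune cells of the same library (43.9 and 22.5 CPM) but with overlapping intervals. Blood endothelium of labelled f/f, at 68.8 CPM (58.5-80.4), and erythroid cells of labelled f/w, at 88.4 CPM (69.3-111), stood above the immune cells of their library, with intervals that did not overlap. Single erythroid cells held 14 of the 29 and 32 of the 73 UMIs, and 12.1% of those of labelled f/w had a UMI (3.03% after thinning). Without the highest cell of each library the log2 ratio was -1.33 in erythroid cells, 1.26 in blood endothelium and 2.65 in myocytes. In myocytes of labelled f/w, 1 cell held 7 of the 13 UMIs.

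Aldh1a2 was higher in labelled f/f in blood endothelium (1.21; 29 against 25 UMIs) and lower in cells with tendon markers (-1.98; 10 against 24 UMIs) and in cells with Osr1, Osr2 or Meox2 (-1.30; 11 against 27 UMIs). In blood endothelium 1 cell held 13 of the 29 UMIs and another 9 of the 25, and without the highest cell of each library the log2 ratio was 0.997 (-0.10 to 2.09) on 16 UMIs each, just under 2-fold. In labelled f/w, 13 of the 24 UMIs of tendon cells came from 1 cell, and without the highest cell of each library the log2 ratio was -1.18 on 8 and 11 UMIs.

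Aldh1a3 was higher in labelled f/f in pericytes (1.55; 30 against 5 UMIs), in cells with tendon markers (1.17; 48 against 13 UMIs) and in cells with Hoxd13, Tbx3 or Isl1 (1.28; 16 against 14 UMIs), and lower in Foxd1 cells (-1.84; 7 against 52 UMIs). A single Foxd1 cell of labelled f/w held 33 of these UMIs, and without the highest cell of each library the log2 ratio was -0.88 (-2.65 to 0.59).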

How the results depend on the processing

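The count of 0 genes past 2-fold held in mesenchyme under 12 alternatives and over all kept cells under 9. The count of 20 pairs past 2-fold over the sets became 1 with the next list at 0 UMIs, which left 3 sets, 7 after thinning to 2000 UMIs, 56 at 1.5-fold and 38 with no minimum of UMIs, and lay between 14 and 23 under the other 9. The 7 genes highest in a mesenchymal subset became 3 with the next list at 0 UMIs, 5 after thinning and stayed 7 under the rest. Alternatives added after seeing the data were leaving out shared barcodes (20 pairs), the limits as first written (17 pairs) and leaving out the highest cell (14 pairs, with 4 lost because no UMI was left in labelled f/w). In mesenchyme the ratio changed sign for Aldh1a2 under 5 of 11 alternatives (-0.16 to 0.33), for Aldh1a1 under 2 of 9 and for Stra6 under 1 of 10, and for none of the other 6 genes. The size of these 6 ratios moved by more than their counting intervals for some genes. Crabp1 ran from 0.20 to 0.68, Aldh1a3 from 0.11 to 0.51 and Crabp2 from -0.47 to -0.20. Rarg ran from -0.77 to -0.07, Cyp26b1 from -0.72 to -0.30 and Rarb from -0.37 to -0.01. Depth limits Aldh1a1, Rarb and Stra6 most. No paired analysis was possible because each group is 1 library.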

Other observations

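Cells with mesothelial markers, the lining of body cavities, were too few to enter a comparison (11 in labelled f/f and 4 in labelled f/w) but carried Aldh1a2. They held 264 CPM (188-359; 40 UMIs, in 100% of the cells) and 121 CPM (48.6-249; 7 UMIs, in 75.0%). Stra6 had 0 UMIs in these cells in both libraries, where the upper bounds of the intervals were 24.3 and 63.7 CPM.

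Cells that met no class were lower in depth and held the members at middling levels, with Crabp1 at 123 and 177 CPM, Crabp2 at 88.9 and 112 CPM and Rarg at 30.7 and 53.1 CPM in labelled f/f and labelled f/w. Cells that met a class limit but entered no class held Cyp26b1 at 17.6 and 26.2 CPM and Aldh1a2 at 7.45 and 10.3 CPM.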
